A study of Mus musculus with 128 samples.

Results

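Interscapular brown fat of SM/J mice was compared with that of LG/J mice after both had eaten a high-fat diet to 20 weeks of age. SM/J and LG/J are inbred mouse strains, derived from stocks selected for small and for large body size. The comparison uses 16 of the 128 RNA-seq libraries of the study: 8 SM/J libraries (4 females and 4 males) and 8 LG/J libraries (4 females and 4 males), each from the brown fat of 1 animal, chosen by strain, diet, age and tissue alone. All 16 animals share the high-fat diet, the age of 20 weeks and the depot, and the labels name no transgene, gene deletion or drug. The wider study also holds a low-fat diet, an age of 30 weeks and reproductive white fat. Its title concerns expansion of brown fat and improving blood sugar in obese SM/J mice, so the comparison asks how the brown fat of that strain stands against LG/J at the earlier age.

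Brown fat burns fatty acids and glucose to make heat. Its mitochondria carry Ucp1, a protein of the inner membrane that lets protons return without making ATP, and its cells also take up and oxidise branched-chain amino acids. The depot holds adipocytes together with blood vessels, nerve, fibroblasts that lay down collagen, and macrophages, and in a whole-tissue library fewer cells of a type and less RNA per cell cannot be told apart.

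The values are normalised counts that the authors filtered and scaled separately in 1 table for each strain, diet and tissue. The 12450 genes present in both tables (of 13252 for SM/J and 12716 for LG/J) were rescaled together to CPM (a gene's share of its library's counts, scaled to a fixed total) with trimmed-mean (TMM) factors of 0.883 to 1.08, from deposited library totals of 18473283 to 21799085. The depth in reads is unknown. Strain and table cannot be told apart, and reads of both strains were aligned to the mm10 reference genome, so a sequence difference from that reference can also change how many reads a gene receives; this was not tested. The libraries fell into their strains: the first principal component held 53.5% of the variance and separated SM/J from LG/J, and the correlation of log2 values was 0.972 to 0.992 between libraries of the same strain and sex and 0.913 to 0.967 between strains. The tissue label held in every library, with Ucp1 at no less than 4274 CPM, against 1.32 to 112 CPM in the 16 reproductive white fat libraries of these animals. Skeletal muscle RNA was uneven. The summed level of muscle markers exceeded 250 CPM in 5 SM/J libraries (females 756, 862 and 864, males 703 and 704) and in 1 LG/J library (female 517). Each sum runs over the markers in that strain's own table. These are 7 markers in both tables and 12 more in the SM/J table alone, so the limit was applied to unlike sets. List counts of 3 or more that move by over 1.5 times without these 6 libraries are given both ways. With 3 SM/J and 7 LG/J libraries left, 1689 genes (13.6%) were higher and 1547 (12.4%) lower, so list counts from that fit are read against these smaller shares.

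Differences are SM/J minus LG/J on the scale log2(CPM + 0.1), ± SE, from limma with sex as a covariate, and a gene is called where the p adjusted by Benjamini and Hochberg's method across the 12450 genes is under 0.05. By that rule 3209 genes (25.8%) were higher and 3131 (25.1%) lower in SM/J, together 50.9% of those tested. Differences of at least 1 on the log2 scale, which is at least 2-fold, were more often upward: 662 genes (5.32%) were higher and 271 (2.18%) lower by that much. For 934 genes (7.5%) all 8 SM/J libraries lay above all 8 LG/J libraries, and for 885 (7.11%) all lay below. The balance of calls depends on the scaling. With library totals in place of TMM factors the median of all genes moved from -0.0017 to 0.113, and 4322 genes were higher and 1983 lower, so that 68.5% of the calls were upward in place of 50.6%. List medians below are read against a median near 0 for all genes.

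**Figure D1:**
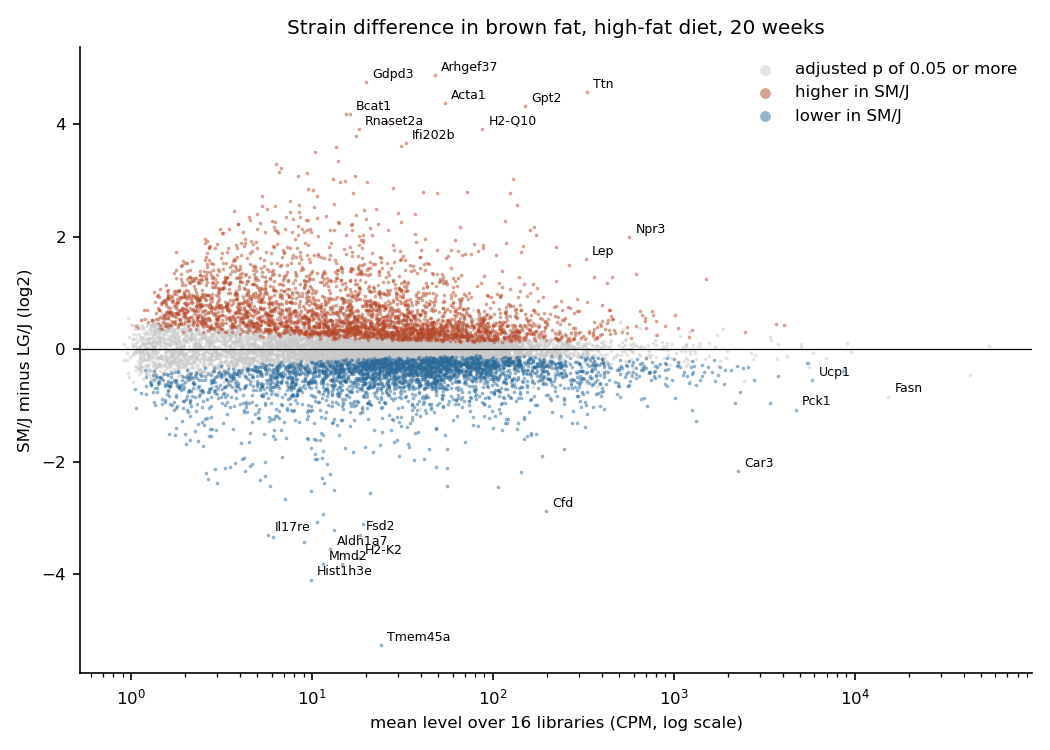
Strain difference (SM/J minus LG/J, log2, vertical axis) against mean level over the 16 libraries (CPM, log axis), 1 point per gene for 12450 genes, coloured by the limma call. Differences of 2 or more are more frequent upward (111 genes, 0.892%) than downward (43 genes, 0.345%), and the highest-expressed genes, such as Ucp1, Pck1 and Fasn, differ by about 1 or less.

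Among the genes with the largest differences were enzymes of amino acid metabolism. Gpt2 (chr8:85492576-85527560, mm10), the mitochondrial alanine aminotransferase, ranged from 236 to 362 CPM in SM/J (median 287) and 10.8 to 19.7 CPM in LG/J (median 14.6). No library of either strain came near the other, and the difference was 4.32 ± 0.11 (SE, adjusted p = 8.96e-15), or 19.9-fold. Bcat1 (chr6:144993835-145076184), the cytosolic aminotransferase that starts the breakdown of branched-chain amino acids, ranged from 20.5 to 48.1 CPM in SM/J (median 25.0) and 0.576 to 3.34 CPM in LG/J (median 1.42). The groups did not overlap and the difference was 4.18 ± 0.26 (SE, adjusted p = 9.09e-10).

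Arhgef37, a guanine nucleotide exchange factor-like gene, ranged from 58.6 to 103 CPM in SM/J (median 95.4) and 1.87 to 4.98 CPM in LG/J (median 3.04), a difference of 4.86 ± 0.16 (SE, adjusted p = 1.44e-13). One SM/J female (864) was lower than the other SM/J animals and still far above every LG/J library. Gdpd3 (chr7:126766334-126775649), a lysophospholipase D, ranged from 30.6 to 44.9 CPM in SM/J (median 37.9) and 1.04 to 3.06 CPM in LG/J (median 1.21), a difference of 4.74 ± 0.17 (SE, adjusted p = 4.08e-13). Again no libraries overlapped. Cryab, a small heat shock protein, was 25.8 to 39.6 CPM in SM/J and 1.19 to 3.88 CPM in LG/J, and its difference was 3.79 ± 0.18 (SE, adjusted p = 2.6e-11).

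Other genes among the 10 largest upward differences belong to families with near-identical members, so the count given to each depends on how reads were shared among copies. Rnaset2a, a ribonuclease with a close copy in Rnaset2b, differed by 3.91 ± 0.16 (SE, adjusted p = 3.63e-12). The class I histocompatibility gene H2-Q10 differed by 3.91 ± 0.22 (SE, adjusted p = 2.85e-10). Ifi202b (chr1:173962568-173982744), an interferon-inducible gene of the DNA-sensing Ifi200 family, ranged from 35.9 to 134 CPM in SM/J (median 47.2) and 2.70 to 6.16 CPM in LG/J (median 4.66), a difference of 3.67 ± 0.19 (SE, adjusted p = 5.79e-11). In all 3 genes the 8 SM/J libraries lay above the 8 LG/J libraries. The remaining genes, Ttn and Acta1, are parts of the muscle sarcomere and are described with the muscle markers below.

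Tmem45a (chr16:56805161-56886166), a transmembrane protein, had the largest downward difference. It ranged from 0.551 to 1.62 CPM in SM/J (median 1.20) and 27.4 to 70.3 CPM in LG/J (median 47.7). Every SM/J library was under 2 CPM and every LG/J library above 25 CPM, a difference of -5.26 ± 0.23 (SE, adjusted p = 1.08e-11), or 38.3-fold. Mmd2, a membrane protein of the progestin and adipoQ receptor family, ranged from 0.557 to 2.004 CPM in SM/J (median 1.52) and 9.57 to 34.3 CPM in LG/J (median 18.9), a difference of -3.82 ± 0.20 (SE, adjusted p = 6.3e-11). Fsd2, a fibronectin-domain protein, differed by -3.30 ± 0.30 (SE, adjusted p = 1.17e-07), and Il17re, a receptor subunit for interleukin 17C, by -3.31 ± 0.25 (SE, adjusted p = 8.33e-09). Cyp2e1, a cytochrome P450 that oxidises ethanol and small ketones, ranged from 0.181 to 2.12 CPM in SM/J (median 0.931) and 2.95 to 23.6 CPM in LG/J (median 9.85), with a difference of -3.33 ± 0.39 (SE, adjusted p = 2.03e-06). Its groups did not overlap. Adprhl1, an ADP-ribosylhydrolase-like gene, was the member of this group whose libraries did overlap, at 0.52 to 7.07 CPM in SM/J (median 1.64) and 2.57 to 58.9 CPM in LG/J (median 21.6), and its difference was -3.21 ± 0.58 (SE, adjusted p = 0.000184). The remaining genes have close copies: the histone gene Hist1h3e (-4.10), the class I genes H2-K2 (-3.72) and H2-Q2 (-3.12), and the aldehyde dehydrogenase Aldh1a7 (-3.56), with adjusted p between 3.13e-10 and 1.3e-08.

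**Figure D2:**
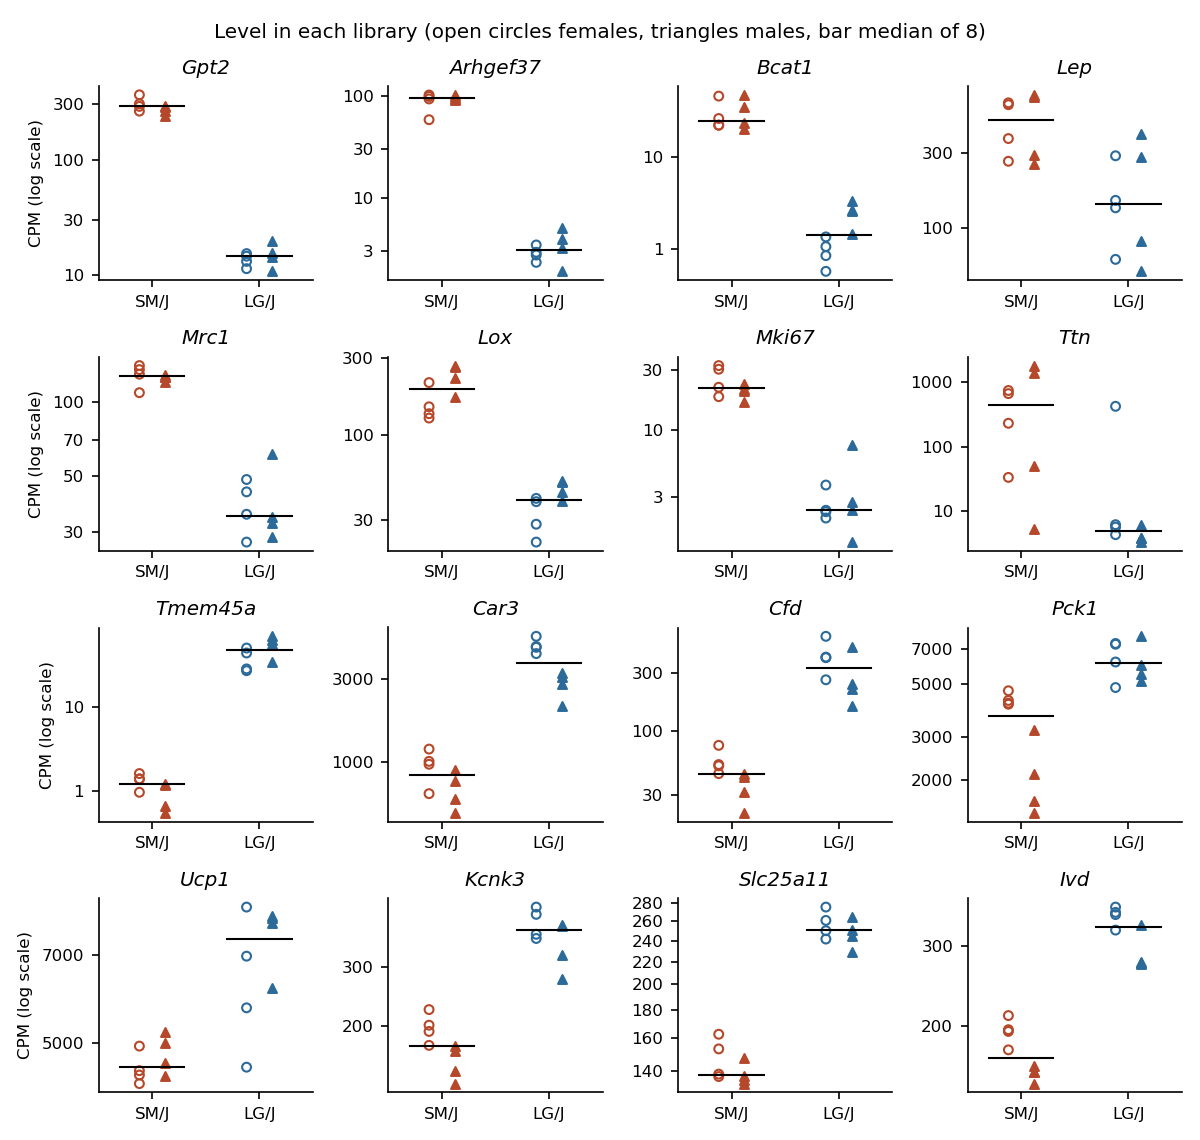
Level in each library (CPM, log axis with its own range per gene) for 16 genes, with open circles for females, triangles for males and a bar at the median of 8. The strains do not overlap for Gpt2, Arhgef37, Bcat1, Mrc1, Lox, Mki67, Tmem45a, Car3, Cfd, Pck1, Kcnk3, Slc25a11 and Ivd, and they overlap for Lep, Ttn and Ucp1.

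Of the 10 most abundant genes that differed at least 2-fold, 5 were lower in SM/J and all 5 are genes of metabolism. Car3, a cytosolic carbonic anhydrase typical of fat and muscle, ranged from 506 to 1181 CPM in SM/J (median 834) and 2093 to 5300.4 CPM in LG/J (median 3728). The groups were apart and the difference was -2.18 ± 0.14 (SE, adjusted p = 1.33e-09). Pck1, which makes the glycerol backbone of triglyceride from pyruvate in fat, ranged from 1458 to 4678 CPM in SM/J (median 3665) and 4825 to 7869 CPM in LG/J (median 6071). The 4 SM/J males were the 4 lowest libraries, every SM/J library was under every LG/J library, and the difference was -1.08 ± 0.19 (SE, adjusted p = 0.000174). Agpat2, an acyltransferase of triglyceride synthesis, differed by -1.09 ± 0.18 (SE, adjusted p = 6.51e-05), Pygl, a glycogen phosphorylase, by -1.01 ± 0.24 (SE, adjusted p = 0.00173), and Coq8a, a mitochondrial kinase-like protein needed for coenzyme Q synthesis, by -1.28 ± 0.11 (SE, adjusted p = 7.13e-08). The call of Pygl was lost in males alone (-1.001, adjusted p = 0.0581).

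The 5 that were higher in SM/J were Npr3, Hp, collagen genes and Rps2. Npr3, the receptor that clears natriuretic peptides and so limits their lipolytic signal, ranged from 762 to 1018 CPM in SM/J (median 915) and 116 to 399 CPM in LG/J (median 204). The strains were fully apart and the difference was 1.99 ± 0.18 (SE, adjusted p = 1.22e-07), or 3.96-fold. Hp, haptoglobin, an acute-phase protein that fat also makes, ranged from 1569.6 to 3272 CPM in SM/J (median 1989) and 533 to 1409.9 CPM in LG/J (median 844), a difference of 1.24 ± 0.15 (SE, adjusted p = 2.63e-06). Col3a1 differed by 1.33 ± 0.17 (SE, adjusted p = 3.65e-06) and Col12a1 by 1.28 ± 0.22 (SE, adjusted p = 0.000111). Rps2, a ribosomal protein gene with many processed pseudogenes, differed by 1.17 ± 0.076 (SE, adjusted p = 1.46e-09) and is uncertain for that reason.

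The thermogenic genes of brown fat were lower in SM/J. Of 30 listed genes, all measured, 17 were lower and 3 higher, with a list median of -0.42 (25.1% of all genes were lower). Ucp1 (chr8:83290352-83298452) ranged from 4274 to 5205 CPM in SM/J (median 4558) and 4551 to 8410.2 CPM in LG/J (median 7444), or 4666 ± 336 CPM in SM/J and 6989 ± 1393 CPM in LG/J (SD, n = 8 each). The SM/J values were close together, the LG/J values were spread widely, and 1 LG/J female (623) lay within the SM/J range. The difference was -0.56 ± 0.12 (SE, adjusted p = 0.000967), or 1.47-fold lower. In females alone it was -0.47 and did not pass (adjusted p = 0.0965). Cidea, a lipid-droplet protein of brown adipocytes, differed by -0.56 ± 0.11 (SE, adjusted p = 0.000359), and in females alone by -0.43, which did not pass (adjusted p = 0.0764).

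Some regulators of the brown programme were among the lower genes. Prdm16, a transcriptional co-regulator of brown adipocyte identity, differed by -0.94 ± 0.16 (SE, adjusted p = 7.29e-05), Lhx8 by -0.98, Irf4, which acts with PGC-1alpha on the Ucp1 gene, by -0.88, and Ppargc1b by -0.68, all with an adjusted p under 0.05. Kcnk3, a potassium channel that dampens adrenergic signalling, ranged from 134 to 224 CPM in SM/J (median 175) and 276 to 454 CPM in LG/J (median 386). The groups did not overlap, and the difference was -1.10 ± 0.087 (SE, adjusted p = 1.93e-08). Slc27a2, a very long-chain acyl-CoA synthetase, differed by -1.31 ± 0.17 (SE, adjusted p = 6.1e-06). The estrogen-related receptor genes Esrra and Esrrg, which drive mitochondrial genes, differed by -0.52 and -0.56. In the other direction, Tbx15, a transcription factor of brown and interscapular fat, ranged from 9.69 to 16.95 CPM in SM/J (median 12.5) and 2.30 to 4.50 CPM in LG/J (median 3.87), and every SM/J library lay above LG/J (1.80 ± 0.16, adjusted p = 5.24e-08). Dio2, the deiodinase that activates thyroid hormone in brown fat, spanned 55.3 to 124 CPM in SM/J (median 99.02) and 30.8 to 199 CPM in LG/J (median 67.7), and its difference of 0.27 ± 0.29 (SE, adjusted p = 0.46) did not pass the test. In females alone it was 0.81 and passed (adjusted p = 0.0463), and in males alone it was -0.27 (adjusted p = 0.638). Ppargc1a (-0.046), Elovl3 (-0.13), Cox7a1 (-0.41) and Cox8b (-0.26) did not pass either. Without the 6 libraries rich in muscle RNA, 11 of 30 were lower and 1 higher, with a median of -0.41.

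Of 35 measured subunits and partners of the respiratory chain encoded in the nucleus, 24 were lower and 0 higher with all 16 libraries, with a median of -0.29 and a range of -0.76 to 0.27. The lower members included Ndufb10 (-0.76 ± 0.13, adjusted p = 8.05e-05) and Ndufs7 (-0.69 ± 0.13, adjusted p = 0.00036) of complex I. Sdhd of complex II ranged from 558 to 766 CPM in SM/J (median 651) and 821 to 1066 CPM in LG/J (median 917), and its groups did not overlap (-0.48 ± 0.075, adjusted p = 4.41e-05). Without the 6 muscle-rich libraries 2 of 35 were lower, below the 12.4% of all genes in that fit, and the median was -0.18. With library totals as the scale 13 were lower and 2 higher, and with quantile normalisation 12 and 3.

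Mitochondrial carriers and dynamics genes moved the same way, with 20 of 30 lower, 1 higher and a median of -0.36. Slc25a11, the carrier that exchanges 2-oxoglutarate for malate, ranged from 133 to 163 CPM in SM/J (median 137) and 229 to 276 CPM in LG/J (median 250.2), with wide separation of the strains (-0.82 ± 0.053, adjusted p = 1.63e-09). Mfn2, which fuses mitochondria, differed by -0.54 ± 0.062 (SE, adjusted p = 1.32e-06). Mpc1, a subunit of the pyruvate carrier, was listed at 71.0 CPM in SM/J and 219 CPM in LG/J (medians), but its processed pseudogene Mpc1-ps appears in the SM/J table alone, at 44.2 ± 8.37 CPM. Reads of the gene and of its copy cannot be told apart, so the value is uncertain. Without the muscle-rich libraries 16 of 30 were lower.

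Genes for the breakdown of branched-chain amino acids, a fuel pathway of active brown fat, were lower at most steps. Of 22 measured genes, 17 were lower and 2 higher, with a median of -0.37. Ivd, which oxidises the leucine product isovaleryl-CoA, ranged from 149 to 210.5 CPM in SM/J (median 169.5) and 274 to 367 CPM in LG/J (median 331). All SM/J libraries were below all LG/J libraries, and the difference was -0.87 ± 0.056 (SE, adjusted p = 1.3e-09). Mccc2, the next enzyme of leucine breakdown, differed by -0.87 ± 0.055 (SE, adjusted p = 1.11e-09), and Aldh6a1 of valine breakdown by -0.85 ± 0.072 (SE, adjusted p = 4e-08). Slc25a44, the mitochondrial branched-chain amino acid carrier, differed by -0.43 ± 0.089 (SE, adjusted p = 0.000617), and Bcat2, the mitochondrial aminotransferase, by -0.47 ± 0.086 (SE, adjusted p = 0.000182). The genes that were higher were the cytosolic Bcat1, given above, and Pccb (0.39 ± 0.079, adjusted p = 0.000578). Without the muscle-rich libraries 10 of 22 were lower and 2 higher.

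Receptors and enzymes of adrenergic signalling and lipolysis, which release fatty acids on sympathetic stimulation, were called lower for 8 of 24 measured genes and higher for 2, against 25.1% and 25.8% of all genes, with a median of -0.11 that turned to 0.0034 with library totals as the scale. The lipases Lipe (-0.49 ± 0.083, adjusted p = 0.000102) and Pnpla2 (-0.55 ± 0.096, adjusted p = 0.000114) and the phosphodiesterase Pde4d, which degrades cyclic AMP (-0.93 ± 0.084, adjusted p = 8.4e-08), were the members with the smallest p beside Npr3. Among 14 lipid droplet genes 2 were higher and 6 lower (0 and 4 without the muscle-rich libraries), the latter including Cidec (-0.88 ± 0.1, adjusted p = 1.33e-06), Plin1 (-0.45 ± 0.077, adjusted p = 9.96e-05) and Plin3 (-0.54 ± 0.091, adjusted p = 9.63e-05). In the list of creatine and calcium cycles, which can use energy without Ucp1, 4 of 9 genes were higher and 4 lower. The list median was -0.24 and its members ran from -0.71 to 0.93. Gatm, which makes the creatine precursor, was higher by 0.93 ± 0.13 (SE, adjusted p = 1.21e-05) and the calcium pump Atp2a3 by 0.93 ± 0.12 (SE, adjusted p = 4.5e-06). Another calcium pump, Atp2a2, averaged 263 CPM in SM/J females and 262 CPM in SM/J males, against 326 and 294 CPM in LG/J. Without the muscle-rich libraries 4 were higher and 1 lower.

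Fat and sterol synthesis genes were called lower in SM/J more often than higher. Of 18 fatty acid synthesis genes 9 were lower and 0 higher, with a median of -0.63. The called members included the regulators Srebf1 (-0.69 ± 0.12, adjusted p = 0.000181), Mlxipl (-0.39) and Insig1 (-1.06 ± 0.20, adjusted p = 0.000327), and the enzymes Acss2 (-1.38 ± 0.28, adjusted p = 0.000464), which makes acetyl-CoA from acetate, and Fads1 (-1.23 ± 0.10, adjusted p = 4e-08), a fatty acid desaturase. Fasn, the fatty acid synthase itself, was highly variable, at 3991 to 24587 CPM in SM/J (median 8277) and 2592 to 37539 CPM in LG/J (median 22304). The ranges overlapped almost entirely and the difference of -0.84 ± 0.47 (SE, adjusted p = 0.148) did not pass. It did pass without LG/J male 403, whose level of 2592 CPM was the lowest of the 16 (-1.22, adjusted p = 0.0118). Acaca, Acly, Scd1, Elovl6 and Me1 did not pass, with differences of -0.57, -0.30, -0.46, -0.66 and -0.60.

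Of 19 cholesterol synthesis genes 12 were lower and 2 higher, with a median of -0.54. Dhcr7, the last enzyme of one branch of the pathway, ranged from 2.76 to 7.40 CPM in SM/J (median 4.02) and 15.1 to 26.3 CPM in LG/J (median 20.8), and its groups were apart (-2.22 ± 0.15, adjusted p = 3.98e-09). Fdft1, squalene synthase, differed by -1.25 ± 0.16 (SE, adjusted p = 5.51e-06). With the muscle-rich libraries left out, 7 of 19 were lower and 0 higher. The sterol regulatory element, searched on both strands as TCAC, any 1 base, CCAC, lay in the promoters (250 bases before the RefSeq start) of 1 of 12 measured cholesterol synthesis genes and 1 of 15 fatty acid synthesis genes that matched the RefSeq table, against 1.04% of all promoters. The cholesterol synthesis gene with the match did not differ past the threshold (0.051, adjusted p = 0.719).

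Glucose uptake and triglyceride genes were lower in part. Slc2a4, the insulin-responsive glucose transporter, ranged from 169 to 295 CPM in SM/J (median 208) and 332 to 554 CPM in LG/J (median 419.6), with no overlap (-0.997 ± 0.10, adjusted p = 4.59e-07). In the glycolysis and glycogen list 11 of 23 were lower and 2 higher, among the lower Gpi1 (-0.79), Gys1 (-0.67) and Pfkm (-0.53), with a list median of -0.12 that moved to -0.0087 with library totals as the scale and to 0.024 with quantile normalisation. When the muscle-rich libraries were left out, 7 were lower and 0 higher. In the list of lipid uptake and triglyceride synthesis 12 of 23 were lower and 3 higher, and without the muscle-rich libraries 6 and 1. Slc27a1, a fatty acid transporter, differed by -0.99 ± 0.12 (SE, adjusted p = 2.92e-06) and Dgat1, which makes triglyceride, by -0.69 ± 0.07 (SE, adjusted p = 3.56e-07), whereas Cd36, a fatty acid receptor, was higher by 0.42 ± 0.11 (SE, adjusted p = 0.00278). In fatty acid oxidation 9 of 26 were lower and 2 higher, against 25.1% and 25.8% of all genes, with a median of -0.18. Library totals gave 7 lower and 5 higher, quantile normalisation 7 and 6 with a median of 0.021, and leaving out the muscle-rich libraries 6 and 1, so the direction of this list depends on the scaling. Cpt1a, the liver-type carnitine palmitoyltransferase, was among the higher (0.57 ± 0.079, adjusted p = 1.18e-05). Of 25 insulin signalling genes 9 were higher and 5 lower. Akt2 differed by -0.63 ± 0.06 (SE, adjusted p = 1.74e-07), Irs1 by -0.97 ± 0.13 (SE, adjusted p = 7.05e-06) and Irs2 by 1.05 ± 0.16 (SE, adjusted p = 2.51e-05), with the receptor substrates in opposite directions.

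Hormones and markers of white-type adipocytes were split. Of 18 genes 9 were higher and 6 lower, and without the muscle-rich libraries 4 and 3. The largest upward difference in this list was that of Trem2 (2.48), which is described with the macrophage genes below. Lep, the satiety hormone whose level in fat follows adipocyte size, ranged from 254 to 695 CPM in SM/J (median 486) and 53.7 to 392 CPM in LG/J (median 143). One LG/J female (623) and 2 LG/J males (344 and 403) reached into the SM/J range, and the difference was 1.59 ± 0.39 (SE, adjusted p = 0.00261). With the muscle-rich libraries left out, it was 1.27 (adjusted p = 0.158) and in males alone 1.53 (adjusted p = 0.0802), so this call was lost in both. Sncg, gamma-synuclein, was higher by 2.17 ± 0.19 (SE, adjusted p = 6.2e-08), and Nnat, an imprinted proteolipid, by 1.06 ± 0.27 (SE, adjusted p = 0.00293). The call of Nnat was also lost without those libraries (0.79, adjusted p = 0.126) and in males alone (0.65, adjusted p = 0.205). Cfd (chr10:79890853-79892655), adipsin, a serine protease secreted by adipocytes that starts the alternative complement pathway, ranged from 21.4 to 76.4 CPM in SM/J (median 44.8) and 161 to 595 CPM in LG/J (median 330.5). All SM/J libraries were below all LG/J libraries, a difference of -2.88 ± 0.21 (SE, adjusted p = 7.4e-09) or 7.34-fold. Rbp4 (-1.22), Retn (-0.78), Cebpa (-0.88) and Adipoq (-0.29 ± 0.079, adjusted p = 0.00472), the adiponectin gene, were lower too. The Adipoq call was lost with library totals as the scale (-0.18, adjusted p = 0.0778), with quantile normalisation (-0.17, adjusted p = 0.0811), in females alone (-0.19, adjusted p = 0.237) and without the muscle-rich libraries (-0.28, adjusted p = 0.108).

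Factors that brown fat secretes were split, with 6 of 16 measured genes higher and 3 lower, against 25.8% and 25.1% of all genes. Without the muscle-rich libraries the counts were 4 and 2, against 13.6% and 12.4% of all genes in that fit. The list median of 0.14 turned to -0.0053 with quantile normalisation. Lcn2, an iron-binding acute-phase protein, differed by 1.87 ± 0.23 (SE, adjusted p = 3.65e-06), Metrnl, a secreted factor that promotes beige fat, by 0.93 ± 0.13 (SE, adjusted p = 8.98e-06), and Cxcl14, a chemokine of thermogenic fat, by -1.24 ± 0.20 (SE, adjusted p = 5.88e-05).

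Macrophage genes were higher in SM/J almost throughout. Of 23 measured markers 22 were higher and 0 lower, against 25.8% of all genes, with a median of 1.52, and for 15 of them all SM/J libraries lay above all LG/J libraries (7.5% of all genes). The summed level of the markers was 1077 to 1261 CPM in SM/J and 258 to 654 CPM in LG/J. The LG/J sum runs over the 23 measured markers. The SM/J sum also holds 4 markers present in the SM/J table alone, so the sums cover unlike sets. Mrc1, the mannose receptor of tissue-resident macrophages, ranged from 109 to 139 CPM in SM/J (median 127) and 27.3 to 61.8 CPM in LG/J (median 34.8), a difference of 1.74 ± 0.14 (SE, adjusted p = 1.53e-08). The lipid-associated genes Gpnmb, Trem2 and Lgals3 were among them. Gpnmb ranged from 22.5 to 38.4 CPM in SM/J (median 27.6) and 2.14 to 8.93 CPM in LG/J (median 3.90), with no overlap (2.77 ± 0.20, adjusted p = 7.41e-09), and Lgals3, galectin-3, from 44.8 to 143 CPM in SM/J (median 72.9) and 4.39 to 28.3 CPM in LG/J (median 9.94) (2.77 ± 0.22, adjusted p = 1.88e-08). Trem2, a lipid-sensing receptor, differed by 2.48 ± 0.29 (SE, adjusted p = 1.59e-06) and Cd68, a lysosomal marker, by 1.65 ± 0.14 (SE, adjusted p = 2.84e-08). Adgre1, the F4/80 antigen, ranged from 25.0 to 39.4 CPM in SM/J (median 29.4) and 10.04 to 56.8 CPM in LG/J (median 11.8). The highest of all 16 libraries was LG/J female 517, which also carried muscle RNA, and the difference was 1.00 ± 0.27 (SE, adjusted p = 0.00473). With a muscle score as covariate it was 0.53 (adjusted p = 0.192) and in females alone 1.02 (adjusted p = 0.0942), so the call was lost in both. Without the muscle-rich libraries the Adgre1 difference was 1.13 (adjusted p = 0.00175) and the call was kept. Cd163 was the marker that did not pass (0.31 ± 0.20, adjusted p = 0.194). With the muscle-rich libraries left out, 22 were higher too, with a median of 1.74.

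Chemokines and cytokines followed the same direction, with 16 of 19 measured genes higher, 0 lower and a median of 1.65. The monocyte attractants Ccl2 (2.86 ± 0.50, adjusted p = 0.000124) and Ccl7 (2.98 ± 0.45, adjusted p = 3e-05) were among them, as were Ccl6 and Ccl9. Ccl6 ranged from 56.6 to 65.2 CPM in SM/J (median 62.6) and 5.46 to 25.9 CPM in LG/J (median 11.3), with the groups far apart (2.41 ± 0.20, adjusted p = 3.98e-08). Il33, an alarmin released by stromal cells, ranged from 6.03 to 52.2 CPM in SM/J (median 13.8) and 2.35 to 3.49 CPM in LG/J (median 3.03). Every SM/J library exceeded every LG/J library. The 3 highest were the SM/J males 290, 703 and 704, the LG/J values lay close together, and the difference was 2.36 ± 0.31 (SE, adjusted p = 5.99e-06). The receptor gene for this cytokine, Il1rl1, differed by 1.53 ± 0.28 (SE, adjusted p = 0.000174), and Il1rn, the antagonist of the interleukin 1 receptor, by 2.84 ± 0.28 (SE, adjusted p = 2.97e-07). Cxcl10 (0.15), Cxcl12 (-0.26) and Il1b (0.97) did not pass. Complement genes were split: 9 of 13 were higher, among them C1s1 (1.76 ± 0.091, adjusted p = 6.78e-11) and C5ar1 (1.73 ± 0.13, adjusted p = 6.67e-09), and 3 were lower, namely C3 (-0.52 ± 0.21, adjusted p = 0.0423), C7 (-1.42 ± 0.22, adjusted p = 4.44e-05) and the adipsin gene.

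Markers of other blood cells were measured for few genes. One of 19 T and NK cell markers was measured in both strains, Thy1, which fibroblasts and nerve also express (0.80 ± 0.13, adjusted p = 8e-05). Of 4 measured B cell genes 3 were higher (1 without the muscle-rich libraries), led by Ighm, the immunoglobulin mu heavy chain, at 28.8 to 98.4 CPM in SM/J (median 57.0) and 2.35 to 9.62 CPM in LG/J (median 3.85) (3.62 ± 0.27, adjusted p = 1.04e-08), while the defining B cell gene Cd79a was at 1.61 and 1.86 CPM (medians) and did not differ past the threshold (adjusted p = 0.485). Of 7 measured neutrophil and mast cell genes 4 were lower and 1 higher (3 and 0 without the muscle-rich libraries), the lower ones including the mast cell genes Kit (-0.74 ± 0.21, adjusted p = 0.00733) and Tpsb2 (-0.85 ± 0.17, adjusted p = 0.00059).

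Extracellular matrix genes were higher in SM/J, with few exceptions. Of 37 measured, 35 were higher, 1 was lower and the median was 0.99, with 20 of them fully separated between the strains (7.5% of all genes). Lox, the enzyme that cross-links collagen and elastin, ranged from 128 to 269 CPM in SM/J (median 192) and 21.96 to 51.9 CPM in LG/J (median 40), a difference of 2.28 ± 0.14 (SE, adjusted p = 5.03e-10). Mfge8, a secreted glycoprotein that bridges dying cells to phagocytes, ranged from 145 to 236 CPM in SM/J (median 182) and 32.1 to 68.4 CPM in LG/J (median 49.8) (1.88 ± 0.11, adjusted p = 5.57e-10). Neither gene overlapped between strains. The fibrillar collagen Col1a1 ranged from 72.3 to 241 CPM in SM/J (median 127) and 35.3 to 71.3 CPM in LG/J (median 47.4), with SM/J female 292 the highest library, and differed by 1.299 ± 0.20 (SE, adjusted p = 4.05e-05). Fn1 (1.85 ± 0.16, adjusted p = 5.95e-08), Thbs1 (1.82 ± 0.50, adjusted p = 0.00554) and Col14a1 (1.76 ± 0.14, adjusted p = 2.06e-08) were also higher. Lama4, a laminin chain of vascular and adipocyte basement membrane, was the gene that was lower (-0.19 ± 0.061, adjusted p = 0.0158), and Lamb1 did not pass (0.095). When the muscle-rich libraries were left out, 33 were higher and 0 lower.

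Stromal genes were higher with the matrix. Of 14 fibroblast and preadipocyte genes 11 were higher and 0 lower, including Pdgfra (0.97 ± 0.073, adjusted p = 1.1e-08) and Cd34 (1.27 ± 0.14, adjusted p = 1.31e-06). In the TGF-beta, BMP and Wnt list 14 of 25 were higher and 2 lower (9 and 1 without the muscle-rich libraries). The higher ligands were Tgfb1 (0.61), Tgfb2 (0.91), Tgfb3 (0.44), Bmp3 (0.98), Bmp6 (0.26) and Inhbb (1.44 ± 0.15, adjusted p = 3.8e-07), the higher extracellular modulators included Sfrp1 (1.05 ± 0.16, adjusted p = 2.52e-05), Sfrp2 (1.72 ± 0.30, adjusted p = 0.000121) and Dkk3 (0.63), and the lower members were the receptors Tgfbr2 (-0.30 ± 0.097, adjusted p = 0.015) and Acvr1c (-0.37 ± 0.11, adjusted p = 0.0081). Of 16 endothelial genes 10 were higher and 0 lower, with a median of 0.35, for example Emcn (1.03 ± 0.097, adjusted p = 1.5e-07) and the lymphatic and macrophage marker Lyve1 (2.26 ± 0.22, adjusted p = 2.51e-07). Of 12 pericyte and smooth muscle genes 6 were lower and 1 higher, with a median of -0.39, for example Cspg4 (-0.55 ± 0.10, adjusted p = 0.000289) and Myh11 (-0.56 ± 0.12, adjusted p = 0.000688).

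**Figure D3:**
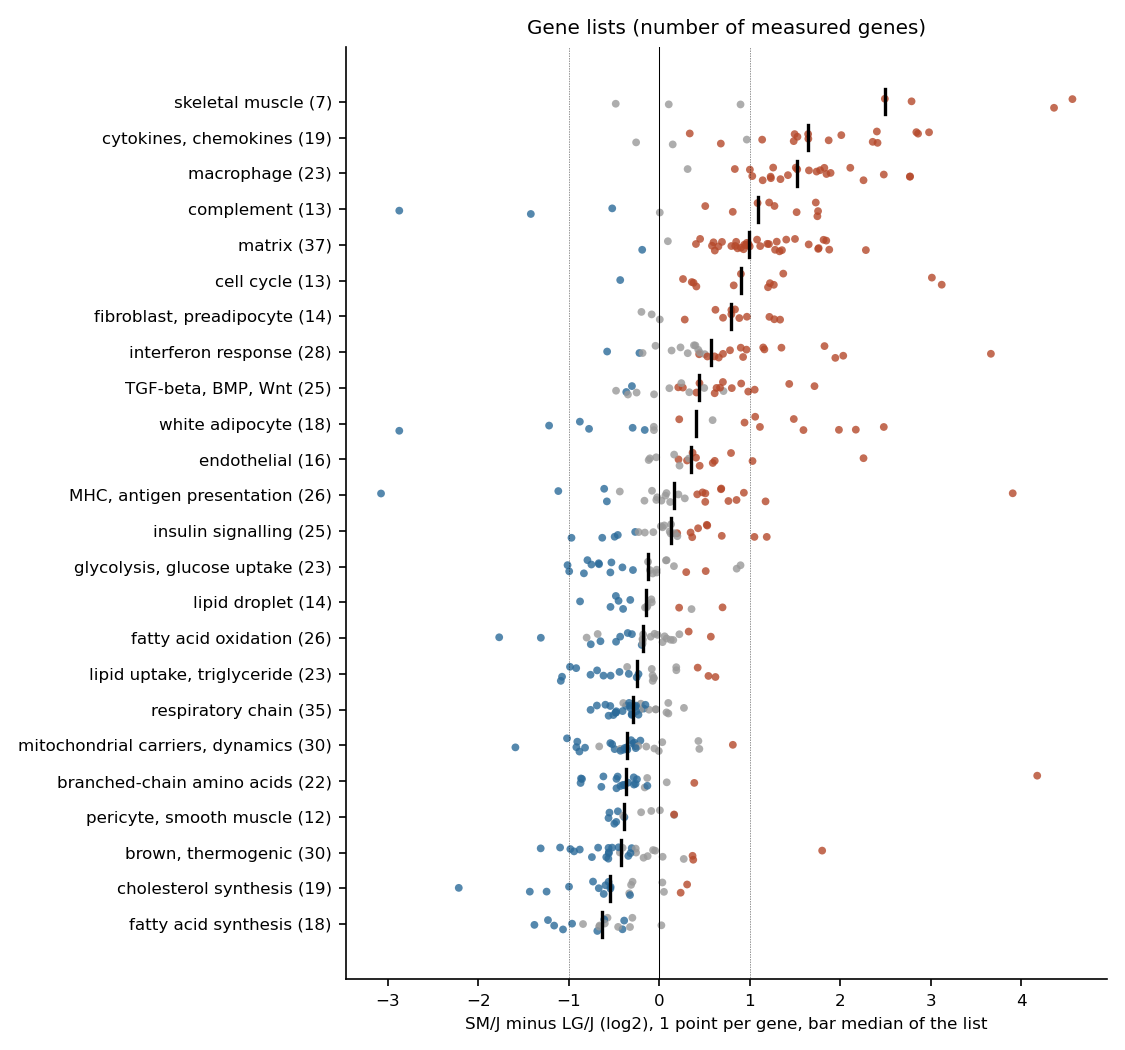
Strain difference (SM/J minus LG/J, log2) of each measured gene in 24 lists, with a bar at the list median and the number of measured genes in brackets. Red points were called higher in SM/J, blue points lower, and grey points did not pass. The lists for immune cells and matrix lie to the right of 0, and those for brown fat, mitochondria and lipid synthesis to the left, with single genes such as Bcat1 and Tbx15 apart from their lists.

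Genes of the dividing cell were higher in SM/J, and the promoters of 3 of them that hold several of the boxes named below are shown as examples. Of 13 measured cell-cycle genes 12 were higher and 1 lower (Bub1b, -0.43 ± 0.17, adjusted p = 0.0454), with a median of 0.90, and another 11 of the 25 listed were present in the SM/J table alone. The strand shown is that of the gene, the bases are the 250 before the RefSeq start site (GRCm38.p6, the build of mm10), and capitals mark CCAAT and TTTGAA on either strand (also read as ATTGG and TTCAAA), the boxes known from promoters of G2 and mitosis genes. Top2a is at chr11:99024190-99024439, Mki67 at chr7:135716380-135716629 and Cdk1 at chr10:69352913-69353162, all on the minus strand.
Top2a: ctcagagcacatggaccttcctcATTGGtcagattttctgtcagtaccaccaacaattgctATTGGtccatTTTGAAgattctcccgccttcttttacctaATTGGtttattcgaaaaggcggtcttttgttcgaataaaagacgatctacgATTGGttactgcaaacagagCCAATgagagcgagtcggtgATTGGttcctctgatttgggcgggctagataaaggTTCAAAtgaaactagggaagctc
Mki67: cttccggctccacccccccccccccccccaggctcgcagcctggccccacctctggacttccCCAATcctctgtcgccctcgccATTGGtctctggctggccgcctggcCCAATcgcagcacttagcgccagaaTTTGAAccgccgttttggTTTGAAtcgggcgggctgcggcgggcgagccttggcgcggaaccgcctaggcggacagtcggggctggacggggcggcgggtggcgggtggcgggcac
Cdk1: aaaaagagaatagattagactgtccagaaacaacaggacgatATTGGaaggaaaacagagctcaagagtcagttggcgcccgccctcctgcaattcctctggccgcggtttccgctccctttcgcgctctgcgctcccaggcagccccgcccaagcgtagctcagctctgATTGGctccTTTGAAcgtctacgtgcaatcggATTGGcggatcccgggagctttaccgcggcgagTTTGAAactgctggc

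Of the 13 measured cell-cycle genes, whose promoters all matched the RefSeq table by symbol, 10 hold CCAAT and 4 hold TTTGAA in this window. Among 27025 promoters of the table the shares are 34.5% and 16.3%, and among the 9436 tested genes with a promoter 35.8% and 10.1%. The promoters shown hold both, with 6 CCAAT boxes before Top2a and 3 each before Mki67 and Cdk1. Neither box lies in the windows of Tk1 (1.27, adjusted p = 1.5e-07), Nusap1 (1.37, adjusted p = 1.17e-06) and Tyms (0.41, adjusted p = 0.00118). A link between the boxes and the size of the difference was not tested. Top2a, the topoisomerase that untangles replicated DNA, ranged from 13.4 to 21.7 CPM in SM/J (median 15.5) and 0.689 to 6.08 CPM in LG/J (median 1.69), and Mki67, the proliferation antigen Ki-67, from 16.7 to 32.3 CPM in SM/J (median 21.5) and 1.33 to 7.63 CPM in LG/J (median 2.37). The 8 SM/J libraries were above all LG/J libraries for both, by 3.12 ± 0.30 (SE, adjusted p = 2.14e-07) and 3.01 ± 0.25 (SE, adjusted p = 3.56e-08), and LG/J male 403 was the highest LG/J library for Mki67. Cdk1, the mitotic kinase, differed by 1.22 ± 0.20 (SE, adjusted p = 7.47e-05). The replication genes Mcm5, Mcm6 and Pcna differed by 0.90 ± 0.19 (SE, adjusted p = 0.000732), 0.82 ± 0.096 (SE, adjusted p = 1.69e-06) and 0.26 ± 0.079 (SE, adjusted p = 0.00999). Rrm2 (1.20, adjusted p = 2.37e-06) and Tk1 (1.27) differed about as much as Cdk1. The macrophage marker sum separates the strains as these genes do, and with the macrophage score as a covariate 0 of 13 were called and the median was 0.27; in that fit 0.827% of all genes were higher and 0.755% lower. With the muscle-rich libraries left out, 9 of 13 were higher and 0 lower.

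Interferon-response genes were higher in part. Of 28 measured, 16 were higher and 2 lower, with a median of 0.57, and without the muscle-rich libraries 9 and 1. The promoter of Ifit3, an antiviral gene, is shown as an example of the interferon-stimulated element, marked in capitals as GAAA, any 2 bases, GAAA on either strand (chr19:34583279-34583528, GRCm38.p6, plus strand).
Ifit3: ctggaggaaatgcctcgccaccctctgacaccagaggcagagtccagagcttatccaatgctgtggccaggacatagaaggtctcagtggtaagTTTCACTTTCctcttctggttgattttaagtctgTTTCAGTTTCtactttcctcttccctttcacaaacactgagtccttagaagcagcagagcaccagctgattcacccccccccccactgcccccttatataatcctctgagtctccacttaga

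The element occurs in 10 of the 20 measured interferon-response genes with a promoter in the table, against 3.04% of all promoters and 2.51% of those of tested genes. Ifit3 differed by 1.83 ± 0.26 (SE, adjusted p = 1.86e-05), and Gbp3, whose promoter also holds the element, by -0.042, which did not pass. Ifih1, an RNA sensor whose window holds no match, differed by 1.16 ± 0.15 (SE, adjusted p = 6.32e-06), and Ifi204, a DNA sensor, by 2.03 ± 0.17 (SE, adjusted p = 2.56e-08). Of the genes with the element, Gbp7, Ifi205, Ifit1 and Ifit3 were called higher. Bst2, Gbp2, Gbp3, Ifit3b, Rsad2 and Stat2, which also hold it, did not pass. Of the genes without it, Ifi202b, Ifi44, Ifih1, Ifit2, Irf7, Irf9, Oasl2 and Xaf1 were called higher, and Ddx58 and Ifi203 did not pass. A link between the element and the strain difference was not tested. The class II genes H2-Aa (0.94 ± 0.16, adjusted p = 8.13e-05) and H2-Eb1 (0.85 ± 0.17, adjusted p = 0.000423), which present antigen on macrophages and B cells, were higher. Class I genes of the same cluster on chromosome 17 stood in both directions, at -3.72 for H2-K2, -3.08 for H2-T10 and 3.91 for H2-Q10. These genes are highly polymorphic between strains, so their counts against 1 reference are uncertain.

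Enzymes that act on foreign compounds, steroids and retinoids differed in both directions. Of 25 cytochrome P450 and related genes 10 were higher and 12 lower (6 and 9 without the muscle-rich libraries). Cyp1b1, which oxidises estrogens and aromatic hydrocarbons, differed by 1.80 ± 0.09 (SE, adjusted p = 5.08e-11), Aox1, aldehyde oxidase, by -1.77 ± 0.11 (SE, adjusted p = 9.21e-10), and Por, the reductase that feeds electrons to P450 enzymes, by -0.93 ± 0.083 (SE, adjusted p = 6.88e-08). Of 22 steroid and retinoid genes 9 were lower and 3 higher (7 and 0 without those libraries), the lower ones including Esr1, estrogen receptor alpha. Esr1 ranged from 4.91 to 16.5 CPM in SM/J (median 11.3) and 19.8 to 59.4 CPM in LG/J (median 31.8), with no overlap and a difference of -1.71 ± 0.16 (SE, adjusted p = 1.5e-07). Of 41 glutathione and antioxidant genes 17 were lower and 6 higher, against 25.1% and 25.8% of all genes. Library totals gave 11 lower and 11 higher, and leaving out the muscle-rich libraries 7 and 4. Hmox1, which degrades haem and is abundant in macrophages, ranged from 23.5 to 287 CPM in SM/J (median 89.5) and 8.46 to 43.8 CPM in LG/J (median 14.1), with overlapping ranges and a difference of 2.16 ± 0.33 (SE, adjusted p = 2.97e-05), and the glutathione transferases Gstm2 and Gstm5, which have close copies, differed by -0.85 and -0.44.

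Stress and clock genes gave smaller counts. Of 27 genes of the unfolded protein and amino acid stress response 11 were higher, among them Psat1, of serine synthesis (1.49 ± 0.24, adjusted p = 6.33e-05), and 2 were lower, among them Asns, asparagine synthetase (-0.90 ± 0.10, adjusted p = 1.35e-06), and the counts were 7 and 1 without the muscle-rich libraries. Of 21 immediate early genes, which respond within minutes to handling or signals, 5 were higher and 0 lower, which is near the 25.8% of all genes (3 without the muscle-rich libraries). They include Fosl2 (1.87 ± 0.18, adjusted p = 1.81e-07) and Atf3 (1.62 ± 0.36, adjusted p = 0.00127). Of 18 circadian clock genes 7 were lower and 4 higher (5 and 1 without the muscle-rich libraries), the lower ones including the repressor Bhlhe41 (-0.93 ± 0.13, adjusted p = 8.95e-06) and Cry2 (-0.46 ± 0.075, adjusted p = 7.18e-05). Beside skeletal muscle, markers of other tissue near the depot gave these counts: 1 of 9 Schwann cell genes was higher and 1 lower, 0 of 3 lymph node and mesothelial genes were higher and 1 lower, and 0 of 2 skin genes were called (Perp and Krt10, adjusted p = 0.0891 and 0.639).

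**Figure D4:**
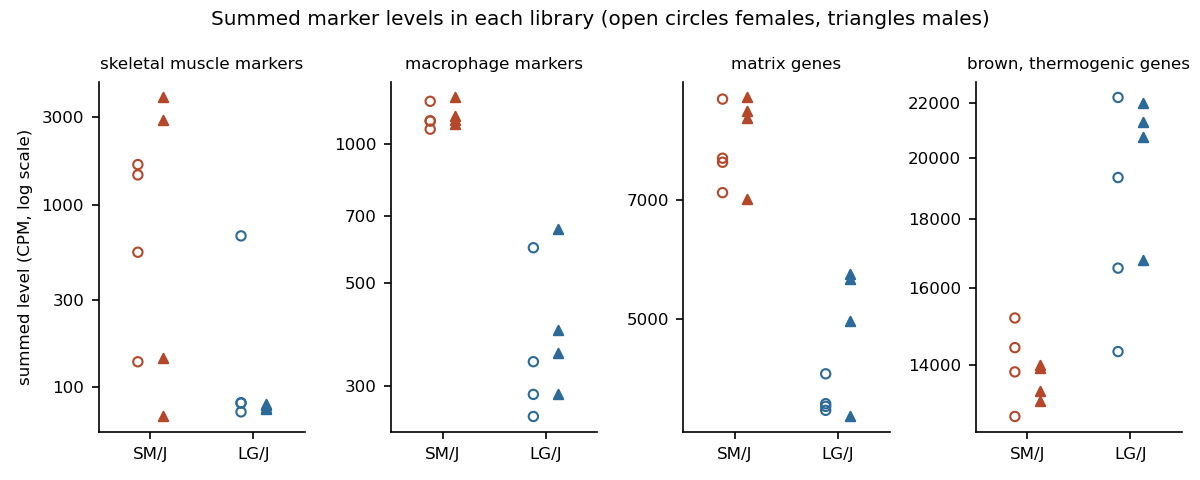
Summed level (CPM, log axes with separate ranges) of skeletal muscle, macrophage, matrix and brown or thermogenic genes in each library, with open circles for females and triangles for males. The LG/J sums hold 7, 23, 37 and 30 genes. The SM/J sums hold these and 12, 4, 1 and 0 more that are in the SM/J table alone. Muscle RNA varies within SM/J from 69.3 to 3852 CPM, while the macrophage and matrix sums separate the strains in every library.

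Of the 10 largest upward differences 2 were sarcomere genes. Ttn, the giant spring protein of the sarcomere, ranged from 5.33 to 1763 CPM in SM/J (median 440.2) and 3.37 to 416 CPM in LG/J (median 5.07), and Acta1, skeletal actin, from 0.694 to 302 CPM in SM/J (median 74.0) and 0.198 to 92.4 CPM in LG/J (median 1.15). In SM/J the level followed the animal, from male 290 with almost none to male 704 with the most, and in LG/J only female 517 was high. The differences were 4.57 ± 1.14 (SE, adjusted p = 0.00283) and 4.37 ± 1.18 (SE, adjusted p = 0.00523), and without the 6 libraries over 250 CPM they were 2.18 (adjusted p = 0.00908) and 2.11 (adjusted p = 0.0714), so the call for Acta1 was lost. Of 20 muscle markers 12 more were in the SM/J table alone, such as Myh4 at 155 ± 173 CPM (SD, n = 8) and Ckm at 33.3 ± 38.4 CPM. Of the 10 largest downward differences all 10 were called there too, and so were Gpt2, Bcat1 and the other 6 genes of the upward group that are not muscle genes. This limit was chosen after the data were seen.

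No difference of the strain effect between the sexes was detectable. The strain by sex interaction called 0 of 12450 genes in limma (466 at an unadjusted p under 0.05, smallest adjusted p = 0.938). Within a strain, males minus females called 0 genes in SM/J (1493 at an unadjusted p under 0.05) and 1 gene in LG/J (0.00803%). It was the complement gene C7, higher in LG/J males by 2.38 ± 0.22 (SE, adjusted p = 0.00641). Its mean was 1.24 CPM in LG/J females and 6.85 CPM in LG/J males. In SM/J it was also higher in males, at 0.474 CPM in females and 2.37 CPM in males, but was not called. This gene was named after its value was seen. Genes of the X and Y chromosomes are not analysed here.

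At 30 weeks on the same diet, in 16 other libraries of the same tables, the same comparison was made in other animals. Any effect of the table would be shared by both ages. There 47.9% of genes were called, and of the genes with a difference of at least 1 at 20 weeks, 661 of 662 higher and 270 of 271 lower kept their sign, with 617 and 263 called in the same direction. The strain difference changed with age for 3 genes (0.0241%, 2 or 0.0161% negative and 1 or 0.00803% positive): Dut, the dUTPase, whose difference was -0.16 at 20 weeks and 0.40 at 30 weeks (20 minus 30 weeks -0.56 ± 0.099, adjusted p = 0.0312), Tctn1 and Gldc. This count ran from 0 to 22 when single 20-week libraries were left out, so it rests on few animals. Macrophage markers (22 of 23 higher, median 1.51) and the thermogenic list (17 of 30 lower, 2 higher, median -0.38) kept their place, and in the respiratory chain 10 of 35 were lower and 1 higher, near the 23.4% of all genes that were lower at 30 weeks.

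On the low-fat diet at the same age the values come from another pair of tables, again 1 for each strain. There 33% of genes were called between the strains (15.6% higher and 17.4% lower in SM/J), and of the genes with a difference of at least 1 on the high-fat diet 589 of 648 measured higher genes and 247 of 257 lower genes kept the sign, with 298 and 209 called in the same direction. The strain by diet interaction called 2177 of 12257 genes (17.8%), 1081 (8.82%) with a more positive and 1096 (8.94%) with a more negative strain difference on the high-fat diet. This count ran from 1535 without LG/J male 351 to 2581 without LG/J male 403.

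The strain difference in lipid synthesis and glucose genes was more negative on the high-fat diet. In the fatty acid synthesis list 12 of 18 had a more negative strain difference on the high-fat diet and 0 a more positive one. The list median was -0.63 on the high-fat and 0.43 on the low-fat diet. Fasn ranged from 3916 to 24302 CPM (median 8169.9) in SM/J on high fat and from 18729 to 44798 CPM (median 35397) on low fat, while LG/J ranged from 2537 to 36542 CPM (median 21838) and 4252 to 40465 CPM (median 23733). The SM/J mean was lower on high fat by 1.80 on the log2 scale, the LG/J mean by 0.205, and the interaction of -1.59 ± 0.60 (SE, adjusted p = 0.0641) did not pass. In the glycolysis and glycogen list 15 of 23 were more negative on high fat and 0 more positive. Its median was -0.12 on high and 0.40 on low fat. Slc2a4 followed, with an interaction of -0.84 ± 0.19 (SE, adjusted p = 0.00496).

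Of the 30 thermogenic genes 11 had a more negative strain difference on high fat and 1 a more positive one. For Ucp1 the low-fat libraries ranged from 2793 to 6121 CPM (median 5079.9) in SM/J and from 2814 to 7840.5 CPM (median 5069) in LG/J, a strain difference of -0.024 ± 0.22 (SE, adjusted p = 0.949), and the interaction of -0.53 ± 0.26 (SE, adjusted p = 0.153) did not pass. On the low-fat diet 7 of the 30 were higher and 7 lower in SM/J.

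The strain difference in macrophage and matrix genes was larger on the high-fat diet. For macrophage markers 4 of 23 were called higher on low fat (median 0.47), and 14 of 23 had a more positive difference on high fat. For the matrix these numbers were 12 of 37 (median 0.31) and 21 of 37. Mrc1 ranged from 51.5 to 97.5 CPM (median 75.7) in SM/J and 23.9 to 61.4 CPM (median 50.0) in LG/J on low fat, with an interaction of 1.02 ± 0.24 (SE, adjusted p = 0.00564). Antigen presentation genes differed between the diets. Of 26 genes 11 were higher and 4 lower in SM/J on high fat (5 and 3, with a median of 0.096, without the muscle-rich libraries), and 1 was higher and 16 lower on low fat, with 17 interactions in the positive direction. For Cd74, the class II chaperone, LG/J on low fat spread from 59.5 to 376 CPM (median 112), and SM/J from 29.9 to 93.7 CPM (median 66.2) (interaction 1.54 ± 0.41, adjusted p = 0.0115). The interferon list did likewise, with 2 of 28 higher and 9 lower on low fat and 13 positive interactions.

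The single genes with the strongest diet interaction were Atp11a, a phospholipid flippase (0.95 ± 0.12, adjusted p = 2.34e-05), Pawr, a pro-apoptotic regulator (1.88 ± 0.23, adjusted p = 2.34e-05), Acvr1b, an activin receptor (1.08 ± 0.15, adjusted p = 7.83e-05), and Steap4, a metalloreductase of adipocytes (1.37 ± 0.19, adjusted p = 7.83e-05), in the positive direction. In the negative direction they were Myo5c, an unconventional myosin (-1.61 ± 0.18, adjusted p = 5.74e-06), Svip (-1.22 ± 0.13, adjusted p = 5.74e-06), an inhibitor of protein degradation at the endoplasmic reticulum, Dglucy (-1.16 ± 0.16, adjusted p = 8.41e-05) and Farp1 (-1.07 ± 0.15, adjusted p = 8.41e-05). Pawr ranged from 24.3 to 47.5 CPM (median 33.6) in SM/J on high fat and 6.66 to 16.3 CPM (median 8.61) on low fat, and from 3.196 to 5.48 CPM (median 4.16) and 1.81 to 7.39 CPM (median 4.67) in LG/J. The SM/J ranges on the 2 diets did not overlap, and the LG/J ranges did.

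In reproductive white fat of the same animals 44.6% of 13519 genes were called between strains (21.5% higher and 23.1% lower in SM/J), and of the genes with a difference of at least 1 in brown fat 549 of 645 measured higher and 200 of 232 measured lower genes kept the sign. The strain by tissue interaction, fitted on the difference between the 2 depots of each animal, called 4917 of 12123 genes (40.6%). Among the 10 largest upward genes, H2-Q10 differed by 3.91 in brown and 0.093 in white fat (interaction 3.80 ± 0.21, adjusted p = 3.95e-09), and Gpt2 by 4.32 and 0.94 (3.36 ± 0.20, adjusted p = 6.96e-09). Gpt2 levels were 297 to 378 CPM in SM/J white fat and 128 to 320.3 CPM in LG/J white fat, and the LG/J brown fat libraries, at no more than 19.7 CPM, were below all of these. Rnaset2a (4.78) and Gdpd3 (4.15) differed between strains in white fat too. The basement membrane gene Nid2 was higher in SM/J brown fat (1.21) and lower in SM/J white fat (-1.40, interaction 2.59 ± 0.11, adjusted p = 1.1e-10), and so was Cachd1 (1.77 and -1.18, interaction 2.94 ± 0.13, adjusted p = 1.1e-10). Fam129a was higher in SM/J brown fat (1.76) and its white fat difference of 0.13 did not pass (interaction 1.62 ± 0.075, adjusted p = 1.82e-10). The complement gene C4a, a close copy of C4b, was 1.09 in brown and 4.92 in white fat (interaction -3.85 ± 0.14, adjusted p = 9.76e-12). Slc25a11, Rab3ip and Kif16b were lower in SM/J brown fat and differed by 0.031, -0.059 and 0.12 in white fat, none of which passed. Macrophage markers were higher in SM/J in both depots, with 17 of 23 called higher and 0 lower in white fat. Cholesterol synthesis genes were mostly lower in brown fat, and in white fat 8 of 19 were higher and 3 lower.

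**Figure D5:**
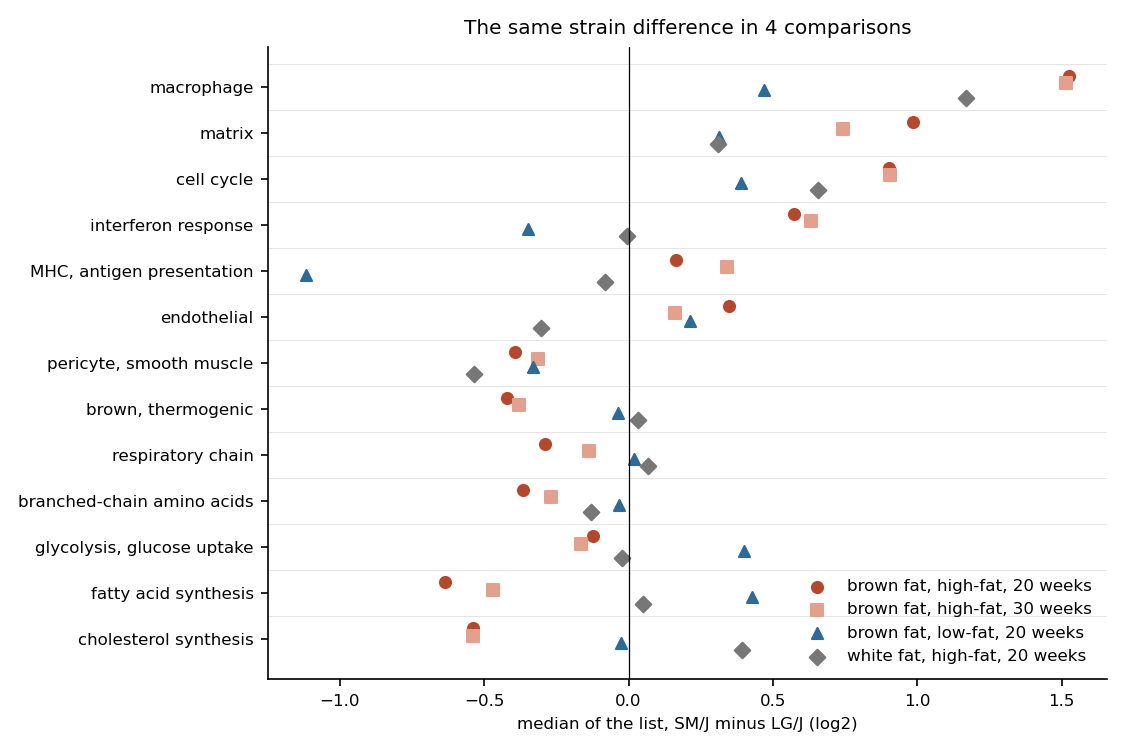
Median strain difference (SM/J minus LG/J, log2) of 13 gene lists in brown fat on the high-fat diet at 20 weeks (circles) and 30 weeks (squares), in brown fat on the low-fat diet at 20 weeks (triangles) and in white fat on the high-fat diet at 20 weeks (diamonds). Circles and squares lie near each other. Fatty acid synthesis moves from -0.63 on high fat to 0.43 on low fat, and antigen presentation from 0.17 to -1.12.

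Genes present in 1 strain's table alone could not be tested. There were 802 in the SM/J table and 266 in the LG/J table, of which 69 and 22 had a mean of at least 5 CPM. The former included, beside the muscle genes, the macrophage genes Mmp12 at 19.8 ± 5.37 CPM and Itgax at 8.02 ± 2.20 CPM, the cytokine Gdf15 at 9.95 ± 6.34 CPM, and the cyclins Ccna2 and Ccnb1 at 4.66 ± 0.601 CPM and 2.58 ± 0.315 CPM (SD, n = 8). Absence from the other table means that a gene did not pass the authors' filter there, over 16 libraries of both ages, and gives no level.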

How the data were processed

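RNA of frozen tissue was made into libraries after ribosomal RNA removal, per the labels' protocols. Reads were aligned with STAR 2.6.0c to mm10 and handled with edgeR (no version stated), per the submitters' processing notes. The deposited values, read as signal (normalised counts per gene), were filtered and scaled by the authors in 1 table per strain, diet and tissue. They are not whole counts: clear read steps appeared in 2 of 16 libraries, so no count model was used and the depth in reads is unknown. The number of animals limits precision. Any adjustment within a table other than a factor per library would remain.

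From these values the 12450 shared genes were rescaled by TMM (trims of 30% and 5%) and tested with limma 3.58.1 in R 4.3.3 (limma-trend, sex as covariate, pseudocount 0.1 CPM, two-sided, Benjamini-Hochberg). The interactions used group means, and strain by tissue the difference within each animal, whose number recurs in both depots. Replicate numbers are animals, and the design text calls them biological replicates. The members and the 40 gene lists were chosen with earlier results of these data known, and 1 list and some genes are not reported here. Genes named are the 10 largest differences each way (adjusted p under 0.05, mean of at least 5 CPM, same sign in both sexes, not a predicted symbol), the 10 most abundant with a difference of at least 1, the 4 smallest p per list and per direction of an interaction, and 11 genes always followed. Other list members were named by their role. On simulated data for this comparison (12450 genes), 68, 66 and 66 genes were changed by 0.5, 1 and 2 on the log2 scale, in both directions. Of these 60.3%, 92.4% and 97% were called, with 12 false calls among unchanged genes. In the data 50.9% of genes were called, so these rates may not hold for a change that wide. Positions are from GENCODE M21; 103 identifiers had no symbol. Promoters are RefSeq's (GRCm38.p6), matched by symbol. No columns were left unmapped. Figures used Python 3.11.15 and matplotlib 3.10.9.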

Additional observations from a re-analysis of the deposited data

Results flagged for a closer look

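In some groups of 8 libraries 1 animal stood apart from the rest (its gap to the nearest library was over 0.526 of the group's range); 11 cases arose in 82 groups examined, and chance gives about 1 in 20. LG/J female 517 was the highest LG/J library for Ttn (416 CPM, next 6.25), Acta1 (92.4, next 1.81) and Adgre1 (56.8, next 21.8). LG/J male 403 was the highest for Gdpd3 (3.06 CPM, next 1.28), H2-Q10 (22.3, next 13.7) and Col3a1 (626 to 627, next 390.0). SM/J female 292 was the highest SM/J library for Col3a1 (1318 CPM, next 970.0) and Col1a1 (241, next 152), SM/J male 290 for Hp (3272 CPM, next 2260.0), and SM/J female 864 was the lowest for Arhgef37 (58.5 CPM, next 91.1). LG/J female 623 was the lowest LG/J library for Adipoq (707 CPM, next 836).

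The strain difference itself differed between conditions, by the tested interaction, for genes given in the report. By age it was Dut (-0.56). By diet they were Atp11a (0.95), Pawr (1.88), Acvr1b (1.08), Steap4 (1.37), Myo5c (-1.61), Svip (-1.22), Dglucy (-1.16) and Farp1 (-1.07). By tissue they were Nid2 (2.59), Cachd1 (2.94), Fam129a (1.62), H2-Q10 (3.80), C4a (-3.85), Kif16b (-0.98), Rab3ip (-1.44) and Slc25a11 (-0.87).

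Data outside the tested genes held signal in 1 strain's table alone. Of the muscle markers 12 were in the SM/J table alone. Stab2, a scavenger receptor of sinusoidal endothelium, had 98.0 ± 22.2 CPM and Ptx3, a pentraxin of inflamed tissue, 61.7 ± 63.5 CPM in SM/J, and Kcnk2, a potassium channel, 16.3 ± 2.26 CPM in LG/J (SD, n = 8). These 3 genes were chosen after their values were seen.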

How the results depend on the processing

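Leaving out single libraries gave 2967 to 3198 genes higher and 2928 to 3226 lower in SM/J, 0 to 0 for strain by sex, 0 to 22 for strain by age, 1535 to 2581 for strain by diet and 4407 to 5110 for strain by tissue. With library totals 1983 genes were lower. Females alone gave 2129 higher and 1845 lower, males alone 1892 and 1916, a test against a log2 difference of 0.5 gave 722 and 374, and the libraries under the muscle limit, an alternative added after the data were seen, 1689 and 1547. With the mean macrophage level as a covariate, which separates the strains, 103 were higher and 94 lower, and Acta1 (-0.048), Pygl (0.013), Dio2 (-0.51), Fasn (1.73) and Adgre1 (-1.41) changed sign. Dio2 also did in males alone (-0.27). Adgre1 is itself a macrophage gene, so the fit with the macrophage covariate cannot judge it. The causes were not tested. RLE scaling, the pseudocounts, the filter at 5 CPM and quantile normalisation reversed none of the named genes. No paired analysis was possible because the strains share no animal, except for strain by tissue, where no replicate block gave 4149 genes in place of 4917. Counting depth could not be judged from these values.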
